A study of Mus musculus with 12 samples.

Results

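The regions described here are stretches of mouse mRNA that were listed as enriched in all 4 libraries pulled down with the control antibody IgG. Sites of the 4 IgG lists and the 4 RBM25 antibody (IP) lists were merged where they shared 1 bp or more, and a merged region was taken when each of the 4 IgG lists held a site in it, whatever the IP lists held. This gave 271 regions in 210 genes, of 1548 merged regions in all (17.5%) and of 701 regions with a site in at least 1 IgG list (38.7%). The regions were chosen by their presence in the IgG lists, so their number, folds and ranks in those lists are a description and carry no test, whereas the IP lists had no part in the choice.

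The libraries came from organoids grown in Matrigel out of cochlear epithelium of mice at postnatal days 1 and 2, expanded with growth factors and the GSK3 inhibitor CHIR99021 and differentiated with CHIR99021 and the gamma-secretase inhibitor LY411575. Control organoids (wild type) carried a control lentivirus, and depleted organoids carried a lentivirus that knocks down Rbm25, although the sample titles and the genotype label call them KO. Each genotype had 2 sets, numbered 1 and 2, and each set gave an IgG, an IP and an Input library from NP40 lysates, which makes 12 libraries in 6 groups of 2. The labels do not say that the sets came from separate animals, so the spread between sets may be technical, and the whole organoid was lysed, so that fewer cells of a type and less RNA per cell cannot be told apart.

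RBM25 is an RNA-binding protein with an RE/RD-rich region and a PWI domain that works with the U1 snRNP in the choice of 5′ splice sites, and it is best known for setting the balance of Bcl-x isoforms in human cells. IgG from a non-immune source has no intended target in the lysate, so RNA found with it is the background that beads, antibody and tube retain. Sites shared by IgG and a specific antibody are commonly filtered out of such experiments. The supporting cells of the newborn cochlea can divide and form hair cells when Wnt is activated and Notch is inhibited, as in this culture.

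Sequence could be read only where a region reached an annotated gene start. Of the 271 regions, 12 overlapped the RefSeq window around such a start, 8 of them at their own gene. Shown here are 6 windows in which a region lies at or over the start, which cover only the few members that reached one. Each runs 5′ to 3′ along the gene's strand from 40 bases before to 30 bases after the annotated start (RefSeq, GRCm38.p6), with the bases inside the region in capitals.
Hist1h1e, chr13:23622529-23622598, minus strand: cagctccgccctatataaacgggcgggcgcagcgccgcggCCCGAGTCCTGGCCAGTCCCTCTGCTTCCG
Chchd1, chr14:20702987-20703056, plus strand: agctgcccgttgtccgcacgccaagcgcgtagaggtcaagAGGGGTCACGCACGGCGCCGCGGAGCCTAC
Fkbp8, chr8:70527703-70527772, plus strand: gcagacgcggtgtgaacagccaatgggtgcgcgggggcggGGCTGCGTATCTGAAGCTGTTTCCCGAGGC
Srsf7, chr17:80207276-80207345, minus strand: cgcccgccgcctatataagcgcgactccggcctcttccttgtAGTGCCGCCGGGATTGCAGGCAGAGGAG
Aif1l, chr2:31950263-31950332, plus strand: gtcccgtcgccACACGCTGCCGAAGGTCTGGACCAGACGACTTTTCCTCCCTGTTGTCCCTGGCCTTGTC
Gstm1, chr3:108017789-108017858, minus strand: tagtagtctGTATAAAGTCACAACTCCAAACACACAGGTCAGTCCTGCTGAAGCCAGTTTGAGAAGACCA
In 3 of these windows the region began exactly at the first annotated base, at the linker histone gene Hist1h1e (H1f4 in RefSeq), at Chchd1, a mitochondrial protein gene, and at Fkbp8, a mitochondrial outer membrane chaperone gene whose site the authors assigned to the overlapping gene Kxd1. Counted at the assigned gene only, such a beginning was found in 2 of the 222 members inside a gene of known strand. It was found in 7 of 310 other regions with an IgG site and in 8 of 659 without one. The region in Srsf7, an SR splicing factor gene, began at base 3 of the transcript. The regions in Aif1l, an actin-binding protein gene, and Gstm1, a glutathione transferase gene, reached 29 and 31 bases upstream of the annotated start. The hexamer CGGGCA, known as an RBM25 motif from human cells, was searched on both strands of 9 such 70-base windows. It occurred in 1 of them, on the other strand of the Chchd1 window in the bases before the start, outside the region, and in 1079 of 32851 start windows of the genome (3.28%).

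The same boundaries came back from library to library. Start and end were identical in all 4 IgG lists in 188 of the 271 regions (69.4%), and taken singly the start was shared in 217 and the end in 224. Where an IP list held the region too, its site had the boundaries of the same-numbered IgG site in 99 of 172 regions in control IP 1, 100 of 175 in control IP 2 and 143 of 190 in depleted IP 1. The regions were narrow, with a median width of 134 bp and a range from 10 to 663 bp. Regions with a site in 1 to 3 IgG lists had a median of 178 bp and those with none 112 bp.

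The 210 genes held 1 region in 152 cases, 2 in 55 and 3 in Rarg, Gucy2f and Usp7. The regions were spread along the gene: in the 222 that lay inside a gene of known strand, the middle of the region was at a median of 69.0% of the way from start to end, with 48 (21.6%) in the last 10% of the gene and 28 (12.6%) in the first. The other regions with an IgG site had 65.7%, 22.9% and 14.5% for these quantities. The member genes had a median length of 32716 bp (208 genes), against 24012 bp for the genes of the other IgG regions and 24536.5 bp for those of regions without an IgG site. Intervals of 2 or more genes covered 17 regions, and whether a region lay in an exon or an intron was not analysed here. Chromosome 11 held most regions (27), followed by chromosome 2 with 26, and chromosome 12 held 2. These counts were not set against the genes or the other regions of each chromosome.

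The regions made up 61.3% and 63.0% of the sites of control IgG 1 and 2 and 54.4% and 53.0% of those of depleted IgG 1 and 2. Fold enrichment here is a ratio to background as the authors' peak caller gave it, list by list, and serves only to rank sites within a list. In control IgG 1 the members had a median fold of 39.7, against 26.7 for the other sites of that list. The median was 36.5 against 28.2 in control IgG 2, 86.1 against 27.8 in depleted IgG 1 and 81.1 against 27.9 in depleted IgG 2. In each of the 4 IgG lists the members therefore stood above the other sites at the median, with single folds from 2.33 to 164547 in control IgG 1 and from 5.84 to 220297 in depleted IgG 1. In the IP lists, which the choice did not use, the median fold of members against other sites was 375.6 against 179.9 in control IP 1, 785 against 195.9 in control IP 2, 86.8 against 445 in depleted IP 1 and 541.6 against 1390 in depleted IP 2, the last over 4 member sites.

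The authors' false discovery rate, in percent, was at its limit of 100% for most IgG sites of the controls. It stood at 100% for 221 and 229 of the members in control IgG 1 and 2 and for 52 and 46 in depleted IgG 1 and 2. The corresponding shares were 81.5%, 84.5%, 19.2% and 17.0% of the members, against 88.3%, 90.6%, 77.1% and 74.2% of the other sites. In 39 regions the rate was 100% in all 4 lists, and in 38 it was below 100% in all 4. In the IP lists, 3 of 172 members (1.74%) were at 100% in control IP 1 and 6 of 175 (3.43%) in control IP 2. The same held for 70 of 190 (36.8%) in depleted IP 1 and 0 of 4 in depleted IP 2. Among the other sites of these lists the shares were 19.4%, 17.0%, 4.33% and 23.0% in the same order. Members were thus at 100% less often than other sites in the control IP lists and more often in depleted IP 1.

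Just outside the rule were 64 regions with a site in 3 of the IgG lists. The missing list was control IgG 2 in 37 of them, control IgG 1 in 20, depleted IgG 1 in 5 and depleted IgG 2 in 2. Their mean percentile of fold over the 3 lists had a median of 35.2, against 57.9 over 4 lists for the members. A further 239 regions had a site in 2 IgG lists, of which 147 were in both depleted and 81 in both control lists, and 127 had a site in 1.

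Most of the 271 members were listed again with the RBM25 antibody in control IP 1, control IP 2 and depleted IP 1, each list taken singly. Control IP 1 held 172 of the 271 members (63.5%, 95% Clopper-Pearson interval 57.4 to 69.2), against 35.0% of all 701 regions with an IgG site. Control IP 2 held 175 (64.6%, 58.6 to 70.3), against 35.9%. Depleted IP 1 held 190 (70.1%, 64.3 to 75.5), against 56.9%. Depleted IP 2 held 4 (1.48%, 0.404 to 3.74), against 1.43%, and this library stood apart, with 165 sites in all where the other IP lists had 593 to 813. The intervals cover the counting of regions only.

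**Figure D1:**
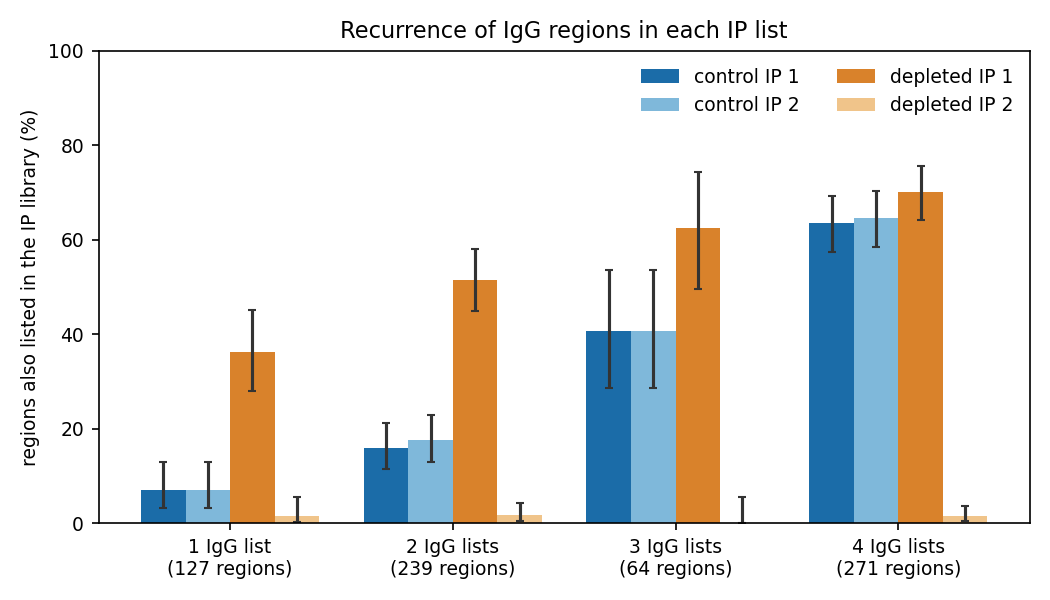
Share of regions listed in each IP list (percent, y axis), by the number of IgG lists that hold the region (1 to 4, with 127, 239, 64 and 271 regions). Bars are the shares, coloured by IP list, and the lines on them are 95% Clopper-Pearson intervals. The share is highest for regions in 4 IgG lists in control IP 1 (63.5%), control IP 2 (64.6%) and depleted IP 1 (70.1%), while depleted IP 2 stays between 0 and 1.67%.

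The plot of recurrence by number of IgG lists shows the share in control IP 1 at 7.09% for regions in 1 IgG list, 15.9% for 2, 40.6% for 3 and 63.5% for the members. Depleted IP 1 went from 36.2% over 51.5% and 62.5% to 70.1%. Over the 4 IP libraries the share of members exceeded that of regions in 1 to 3 IgG lists by 28.7 percentage points ± 22.4 (SD, n = 4). It was higher in 4 of 4 libraries, by 46.5, 46.7, 21.5 and 0.0807 points, with an exact two-sided sign-flip permutation p of 0.125, the smallest that 4 libraries allow. The difference in depleted IP 2 was far within the counting interval of its share. With sites at a false discovery rate under 100% only, the mean difference was -11.3 points, in the opposite direction, and the control IP shares were 31.6%.

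Between genotypes the recurrence of the members did not differ beyond the spread between sets. The mean share was 64.0% ± 0.783 in control IP and 35.8% ± 48.5 in depleted IP (SD, n = 2 each), a difference of 28.2 points with an exact two-sided permutation p of 1, where 2 against 2 cannot give less than 0.333. The spread in the depleted group was that between 70.1% in set 1 and 1.48% in set 2. Without depleted IP 2 the difference was -6.09 points, that is, higher in the one depleted library left. It was 63.8 points (exact permutation p of 0.333) with sites no lower than the median fold of each list, and 6.58 points with sites at a false discovery rate under 100%.

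The lists labelled Input held none of the members. Each such list was the IP list of its set without the sites that touched the IgG list of that set, which left out 198, 194, 349 and 7 sites in control sets 1 and 2 and depleted sets 1 and 2. The members made up 172 (86.9%), 175 (90.2%), 190 (54.4%) and 4 (57.1%) of the sites left out. In the controls, then, most sites missing from the Input list were in all 4 IgG lists.

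The members fell into 4 large recurrence patterns. Both control IP lists and depleted IP 1 held 112 of them (88 genes), depleted IP 1 alone held 71 (59 genes), the control IP lists alone held 57 (48 genes), and no IP list held 22 (18 genes). The remaining 9 were divided over 4 other combinations. The control IP lists were close to each other, with 171 members in both, 5 in exactly 1 and 95 in neither. Of the 58 genes with 2 or 3 members, 47 had the same pattern in all their members, which share their transcript.

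**Figure D2:**
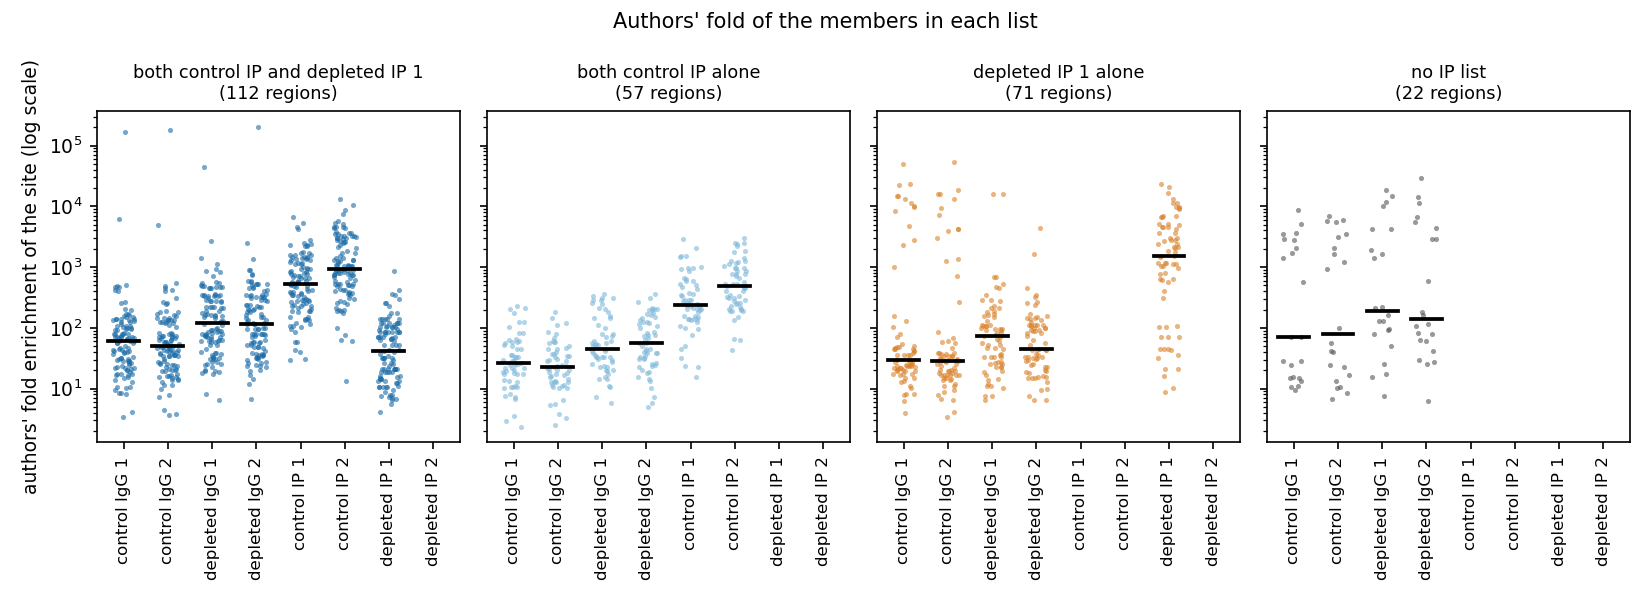
Authors' fold enrichment of the members in each IgG and IP list (log scale, y axis; 1 point per region, horizontal lines are medians), with a panel for each of the 4 large recurrence patterns; the 9 members in other combinations are left out. Each list has its own background, so heights compare sites within a list; members in the control IP lists and depleted IP 1 lie low in depleted IP 1 (median 42.1), and those in depleted IP 1 alone lie high (median 1537).

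Depleted IP 1 ranked the members in an order of its own. The 112 regions also found in the control IP lists had a median fold of 42.1 there, at a median percentile of 15.7 of that list, and 57 of them had a false discovery rate of 100%. The 71 regions found there but in no other IP list had a median fold of 1537 at a median percentile of 76.9, and 54 of them had a rate under 5%. Such low rates were usual in this list: its sites outside the members had a median rate of 1.82%. A score (−10 log10 of p) of at least 3100 was held by 72.1% of those other sites and by 30.0% of the members. All 57 members with a rate under 5% in depleted IP 1 had the value 1.82%. Of these 57, 54 were in neither control IP list. The other 3 lay in Polr3a, an RNA polymerase III subunit gene, Rpl13a and the mitochondrial leucyl-tRNA synthetase gene Lars2. Of the other 133 members in depleted IP 1, with rates from 6.10% to 100%, 116 were in a control IP list and 17 in none. This division by rate was chosen after the values were seen.

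**Figure D3:**
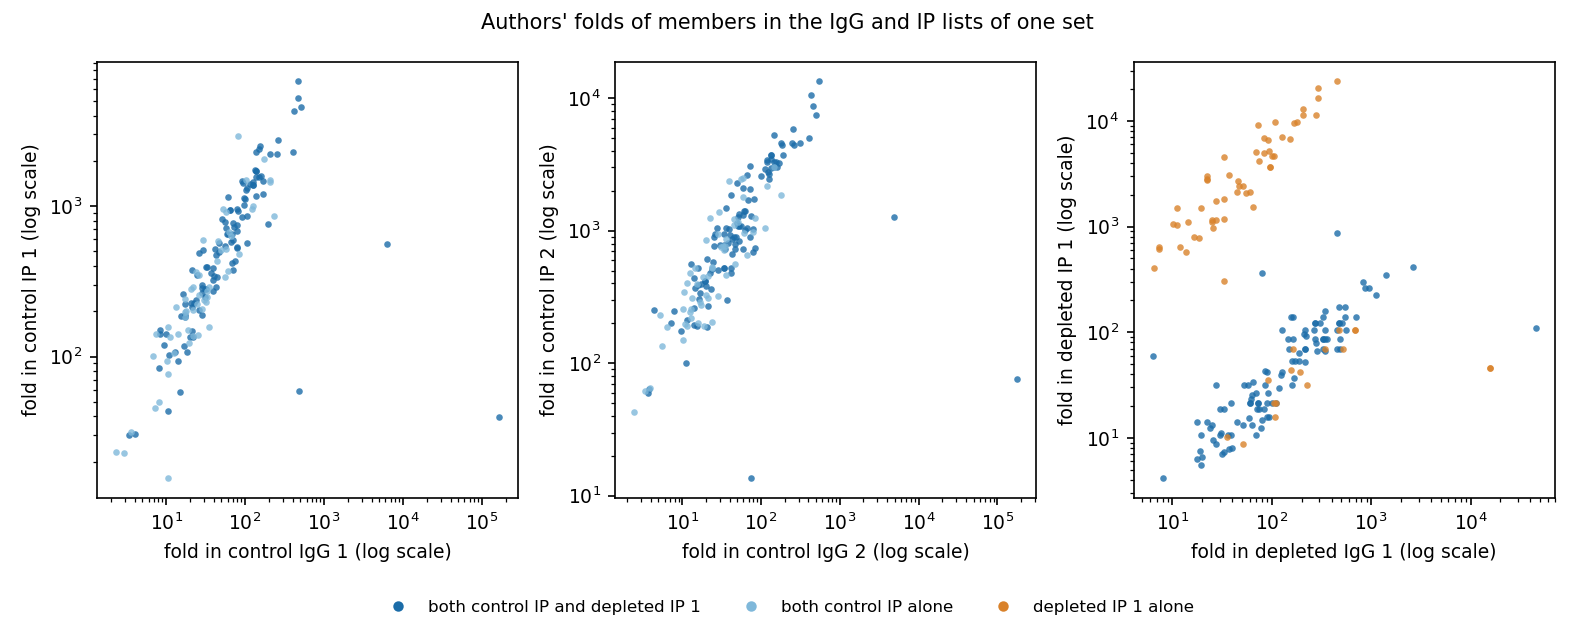
Authors' fold of members in the IgG list (x axis) and the IP list (y axis) of the same set, both on log scales, for control set 1, control set 2 and depleted set 1, coloured by the IP lists that hold the region. Only the large recurrence patterns are plotted, and the members in other combinations are left out. Most plotted points follow 1 band in each control set and 2 bands in depleted set 1, where most regions found in depleted IP 1 alone lie in the upper band.

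In the plot of matched folds most plotted regions of the control sets lie in a single band. Nwd2 lies far below it, at 164547 in control IgG 1 and 39.4 in control IP 1. Members in other combinations are not plotted. Those in control IP 2 and depleted IP 1 had folds from 113.6 to 28647.5 in control IgG 2 but from 8.7 to 26.6 in control IP 2. Cmip had 361 in control IgG 1 and 18.4 in control IP 1. Among the 112 regions the rank correlation (Spearman) of fold between control IP 1 and control IgG 1 was 0.85, and that with control IgG 2 was 0.70. For control IP 2 it was 0.85 with control IgG 2 and 0.69 with control IgG 1. Depleted IP 1 gave 0.88 with depleted IgG 1 and 0.56 with depleted IgG 2. Within the 112 regions, each of these IP lists was thus ranked most like the IgG list of its own genotype and number. In the 71 regions found in depleted IP 1 alone, the correlation of that list with depleted IgG 1 was 0.11. Among the 57 members of depleted IP 1 with a rate under 5%, the correlation with depleted IgG 1 was 0.87, and among the other 133 it was 0.90, against 0.20 over all 190. These are descriptions over regions that share libraries and, in part, genes, and which library the peak caller took as background is not given in the sources used here.

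The IgG lists of one genotype ranked the members alike. Over all 271 the rank correlation of fold was 0.86 between the control IgG lists and 0.68 between the depleted ones, and it lay between 0.46 and 0.49 across genotypes. Ranked among the 271, 76 members (28.0%) stood higher in both control IgG lists than in either depleted list, 75 (27.7%) stood higher in both depleted lists, and 120 overlapped, so the genotypes were apart in 151 (55.7%). These ranks were taken among the members alone, so no share of other regions stands beside this count. For 2 lists against 2, a random order would set the genotypes apart in a single region with probability 0.333. The members share the same lists and, in part, their genes, so they are not replicates, and the count was not tested against this value. The raw folds were higher in both depleted lists for 155, in both control lists for 34, and overlapped for 82, beside list medians that differ as given above.

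**Figure D4:**
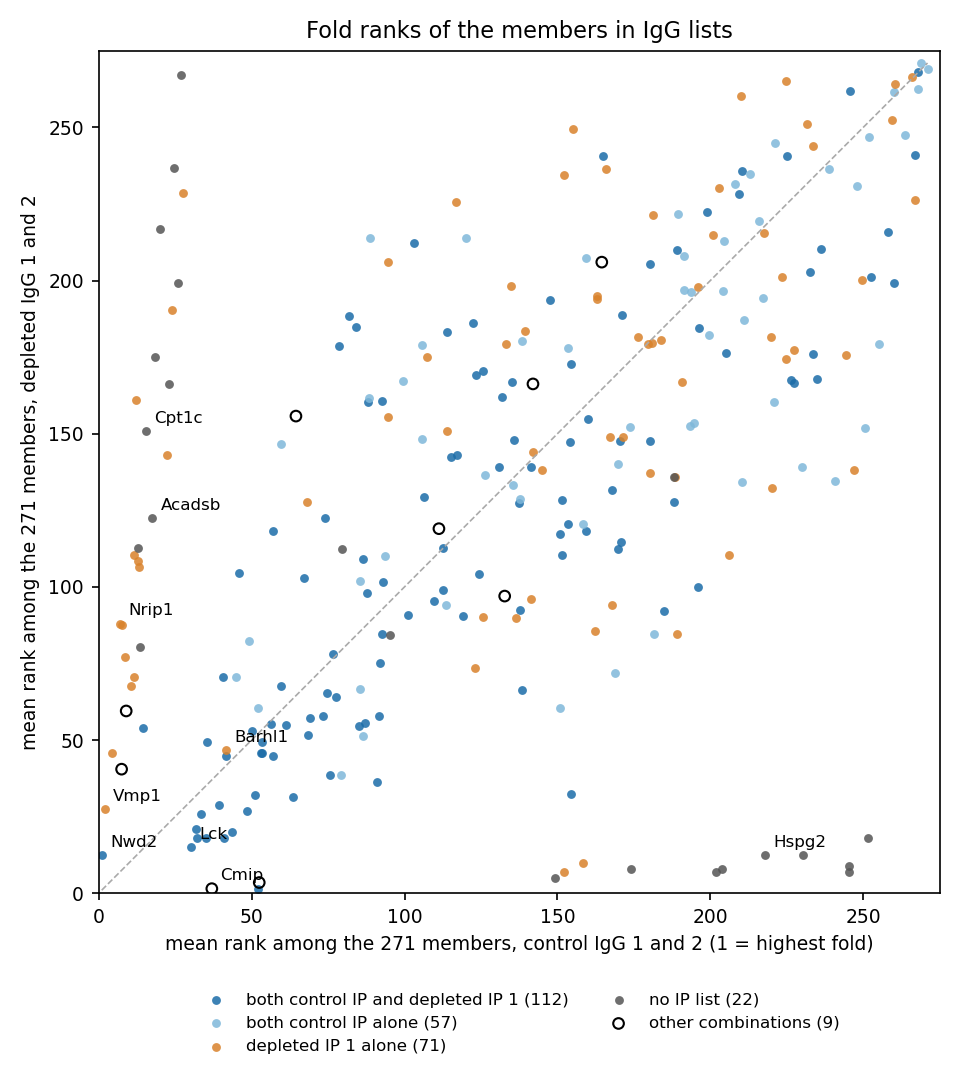
Mean rank of each member among the 271 by fold in the control IgG lists (x axis) and the depleted IgG lists (y axis; rank 1 is the highest fold), coloured by the IP lists that hold the region, with a dashed line of equal rank. Regions along the left edge rank near the top in the control lists and those along the bottom near the top in the depleted lists, and many of both kinds are in no IP list or in depleted IP 1 alone.

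The highest IgG folds belonged to regions that were seldom in the control IP lists. A fold of 1000 or more, a limit chosen after the values were seen, was reached in both control IgG lists by 25 members and in both depleted IgG lists by 15. Nwd2 alone, a gene for a protein with a NACHT domain and WD repeats, reached it in all 4. Of the 44 members that reached it in any IgG list, 5 (11.4%) were in both control IP lists and 19 were in no IP list. Of the 227 that reached it in none, both control IP lists held 166 (73.1%), and only 3 were missing from every IP list.

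Nwd2 carried the first-ranked member. Its region at chr5:63804371-63804553 had folds of 164547 and 179556 in control IgG 1 and 2 and of 2640.1 and 2506 in depleted IgG 1 and 2. Among the members it ranked first in both control lists and 12 and 13 in the depleted lists. The IP lists gave it 39.4, 76.6 and 417 in control IP 1, control IP 2 and depleted IP 1, and depleted IP 2 did not list it.

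Several other genes ranked higher in the control than in the depleted IgG lists, although some of them were high in both. Vmp1, which encodes an endoplasmic reticulum membrane protein needed for autophagosome formation, had folds of 49504 and 52905 in control IgG 1 and 2 and 692 and 446 in depleted IgG 1 and 2 (chr11:86635233-86635306). It ranked second among the members in both control lists, stood at percentiles 94.3 and 92.9 of the depleted lists, and was in no IP list except depleted IP 1, at 104. Trappc10, a subunit of a TRAPP complex that tethers vesicles at the Golgi, had 22843 and 15775 against 346 and 324.6 in one region (chr10:78199044-78199120) and 11555 and 9436 against 111 and 343 in the other. Both Trappc10 regions were in depleted IP 1 alone, at 69.5 and 21.2. Both regions of Itch, a HECT-type ubiquitin ligase gene, and both of Polb, the DNA polymerase of base excision repair, had the same pattern. In Itch the folds were 8500 and 7117 in the control lists against 528 and 111.5 in the depleted lists, and 23343 and 3976 against 692 and 111.5. The raw folds of these regions were higher in both control IgG lists than in either depleted list, as they were for 34 of the 271 members.

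Col27a1, a fibrillar collagen gene of cartilage, had folds of 14765 and 9322 in control IgG 1 and 2 and of 619 and 247 in depleted IgG 1 and 2 (chr4:63215810-63215881). Control IP 2 listed that region at 10.0 and depleted IP 1 at 191, while control IP 1 did not list it. Nrip1, a corepressor of nuclear receptors, had 1 region at 14649 and 13239 against 192 and 136, and another at 1429 and 1617.5 against 15.3 and 27.4. Depleted IP 1 listed the first of these, at 42.4, and no IP list held the second. Lrrfip1, an actin-associated and nucleic acid-binding protein gene, showed the same division, with 1 region in depleted IP 1 and 1 in no IP list. The regions of these genes ranked higher among the members in both control IgG lists than in either depleted list, as did 76 of the 271 members.

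Other genes ranked higher in the depleted IgG lists. Cmip, an adaptor of signalling in T cells, had folds of 361 and 215 in control IgG 1 and 2 and of 220297 and 43353 in depleted IgG 1 and 2 (chr8:117447400-117447448). It ranked first and second among the members in the depleted lists and stood at percentiles 90.7 and 88.6 of the control lists, so it was high in all 4. It was the only member in control IP 1 and depleted IP 1 but not control IP 2, at 18.4 and 868. Both regions of Mical3, a flavoprotein monooxygenase that acts on actin, had control folds from 15.1 to 42.1 and depleted folds from 4330 to 29045. The regions of Galnt7, which takes part in mucin-type glycosylation, lay at 8.43 to 28.6 against 4155 to 11182. Hspg2, the gene of the basement membrane proteoglycan perlecan, had 15.6 and 16.9 against 1656 and 2923. None of the Mical3, Galnt7 and Hspg2 regions was found in an IP list.

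Usp7, a deubiquitinase that acts on MDM2 and p53, held both kinds of region. Its region at chr16:8706599-8706711 had folds of 10.99 and 10.4 in control IgG 1 and 2 and of 10028 and 14185 in depleted IgG 1 and 2, and no IP list held it. Its other regions, at chr16:8710128-8710177 and chr16:8711994-8712149, had folds from 14.8 to 55.2 in the control lists and from 31.5 to 134 in the depleted lists. These were in both control IP lists, at 227 and 1078 and at 564 and 368, and in depleted IP 1, at 18.9 and 7.07. Neighbouring regions of one gene thus differed in their IgG pattern and in their IP lists.

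Among the members that ranked high in all 4 IgG lists, several were in both control IP lists and depleted IP 1. Lck, a Src-family tyrosine kinase best known from T cells, had folds of 473 and 549.9 in control IgG 1 and 2, 1402 and 1370.4 in depleted IgG 1 and 2, 6747 and 13402 in control IP 1 and 2, and 347 in depleted IP 1 (chr4:129556288-129556494). Mettl21a, a lysine methyltransferase of Hsp70 proteins, had 415 and 460.1, 1110.7 and 747, 4313 and 8775, and 226 in the same order (chr1:64616404-64616660). The Lck fold was the highest of any member in both control IP lists. Extl1, an exostosin-like glycosyltransferase gene, Prex1, an activator of Rac, and Des, the intermediate filament protein desmin of muscle, had the same recurrence. Their folds ran from 183 to 507.6 in the control IgG lists, from 509.8 to 947 in the depleted IgG lists and from 2302 to 10609 in the control IP lists.

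Among the genes with several members, values were nearly equal from region to region in Slc12a5 but not in Rarg. Slc12a5, the neuronal potassium-chloride cotransporter KCC2, had a region at chr2:164994008-164994111 with folds of 138 and 135 in control IgG 1 and 2 and 328 and 306.5 in depleted IgG 1 and 2. Its other region, at chr2:164994930-164995025, had 138 and 135, and 346 and 324.6. In control IP 1 and 2 both regions had 1709 and 3702. Loxl3, a lysyl oxidase that cross-links collagen, Dock8, an activator of Cdc42 in immune cells, and Poc1b, a centriole protein, each had 2 regions in both control IP lists and depleted IP 1. The 3 regions of Rarg, the retinoic acid receptor gamma gene, had IgG folds from 19.7 to 334.5 and were in the same 3 IP lists. Gucy2f, a guanylate cyclase of the retina, had 3 regions in both control IP lists, of which depleted IP 1 held 2. The gaps between neighbouring members of a gene had a median of 3759 bp and ran from 238 to 191922 bp (61 gaps).

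No IP list held 22 members. Ptpn13, a tyrosine phosphatase gene, had both of its regions among them, with folds of 5128 and 6844 in control IgG 1 and 2 against 208 and 162 in depleted IgG 1 and 2 (chr5:103489683-103489793), and 8547 and 5479 against 222 and 63.2 (chr5:103492223-103492276). Cpt1c, the brain form of carnitine palmitoyltransferase, had 3465 and 6033 against 77.8 and 60.2, and Acadsb, an acyl-CoA dehydrogenase of branched-chain amino acid breakdown, had 2738 and 5802 against 127 and 81.1. These 4 regions had higher folds in both control IgG lists than in either depleted list, but the first Ptpn13 region was also at percentiles 82.1 and 80.7 of the depleted lists. Myh8, the perinatal myosin heavy chain of skeletal muscle, was unlike them, with 69.2 and 56.1 against 164 and 180.3. Its ranks among the members overlapped between genotypes, at 93.0 and 97.5 in control IgG 1 and 2 and 93.5 and 75.0 in depleted IgG 1 and 2. By rank among the members, 11 of the 22 stood higher in both control IgG lists, 9 higher in both depleted IgG lists and 2 overlapped, against 76, 75 and 120 of all 271.

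Depleted IP 2 listed 4 members, in 3 genes. Both regions of Srsf2, an SR protein that defines exons, were in this IP list and in no other. The region at chr11:116850150-116850431 had folds of 66.0 and 40.1 in control IgG 1 and 2, 168 and 74.2 in depleted IgG 1 and 2, and 108 in depleted IP 2. The region at chr11:116850670-116850953 had 26.9 and 28.3, 45.6 and 25.1, and 224. The other members in depleted IP 2 were the only ones in all 4 IP lists. S100a13, a small calcium-binding protein involved in the release of fibroblast growth factor 1, had IgG folds from 20.4 to 134, control IP folds of 211 and 1180, and 7.07 and 9525 in depleted IP 1 and 2. Ythdc1, the nuclear reader of N6-methyladenosine, had IgG folds of 42.2, 37.1, 728 and 46.8, control IP folds of 253 and 724, and 139 and 859.5 in depleted IP 1 and 2.

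Genes were also read by group, from short lists written by hand, each against the share of all 499 genes with an IgG site that held a member (42.1%). The ontology terms deposited beside the genes cover more genes and are given where they differ. All 5 genes of the ubiquitin ligase list with an IgG site held a member, and 8 of 10 with the deposited term for ubiquitin-protein transferase activity. The 5 were Itch, Nedd4l, Trip12, Ubr4 and Klhl20, a substrate adaptor for cullin 3. The 8 regions of these genes were in both control IP lists in 4 cases and in depleted IP 1 in 6. In Klhl20 the folds were 57.7 and 112 in control IgG 1 and 2, 291 and 178 in depleted IgG 1 and 2, and 521.5 and 1049 in control IP 1 and 2. The 3 listed genes of vesicle traffic and glycosylation with an IgG site (Galnt7, Mia3 and Trappc10) held 5 members, none of them in both control IP lists. Genes of this function outside the list differed: 7 of 11 with the term for vesicle-mediated transport held a member, and the regions of Bet1, Vti1b, B4galt5 and Extl1 were in both control IP lists. The actin, myosin and scaffold group had 5 of 7 genes, with Ahnak and Dsp outside.

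Of 12 genes on the splicing factor list with an IgG site, 5 held a member: Acin1, Luc7l2, Snrnp70, Srsf2 and Srsf7. The deposited terms gave higher shares, with 12 of 20 genes for RNA splicing, 13 of 22 for mRNA processing and 8 of 15 for the spliceosome pathway. Srsf7 had folds of 24.7 and 39.1 in control IgG 1 and 2, 161 and 96.1 in depleted IgG 1 and 2, 349 and 1027 in control IP 1 and 2, and 31.8 in depleted IP 1. Snrnp70, the U1 snRNP protein U1-70K, had 10.7 and 10.2, 23.4 and 23.7, and 76.4 and 149 in control IP 1 and 2, and depleted IP 1 did not list it. Luc7l2, a U1-associated protein, was in depleted IP 1 alone, at 1179, with IgG folds from 7.78 to 36.2. These genes of one function were thus divided over the recurrence patterns. The other 7 listed genes, among them Rbm39, Ddx5 and Hnrnpd, had IgG sites but no region in all 4 IgG lists.

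Of 10 cytosolic ribosomal protein genes with an IgG site 2 held a member, of 9 histone genes 1, and of 3 mitochondrial respiration genes 0. The deposited terms gave 4 of 10 for structural constituents of the ribosome and 7 of 11 for translation. The folds of the listed genes ranked low among the members. Rpl13a had 3.40 and 3.80 in control IgG 1 and 2 and 6.38 and 6.65 in depleted IgG 1 and 2, and Rpl18 had 7.14 and 11.3, and 17.4 and 18.8. Hist1h1e had 8.01 and 7.26, and 31.1 and 27.4, with 83.8 and 199.9 in control IP 1 and 2. How reads of near-identical copies were assigned in these families is not given in the sources used here, so their values are uncertain. Extracellular matrix genes held members in 4 of 14 (Col9a3, Col11a2, Col27a1 and Hspg2), whereas Col1a1, Col1a2, Col3a1 and Fn1 were outside.

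The cilium and centrosome list had 6 regions, in Kiz, Ccdc30 and the planar polarity gene Ptk7. All 6 were in both control IP lists and not in depleted IP 1. This did not hold for the function as a whole: the centrosome term covered 7 member genes of 14 with an IgG site, and both regions of Poc1b and the region of the centrosomal gene Sfi1 were in depleted IP 1. Kiz, which stabilises the spindle poles, had a region at chr2:146950523-146950537 with folds of 127 and 179.6 in control IgG 1 and 2, 255 and 270.5 in depleted IgG 1 and 2, and 1007 and 1864 in control IP 1 and 2. The region in Ccdc30, a coiled-coil protein gene, at chr4:119404175-119404264 had 44.0 and 24.1, 309.5 and 200.7, and 430.0 and 529.

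The Wnt genes Axin2, a feedback inhibitor, and Fzd1, a receptor, both held a member, in both control IP lists and depleted IP 1. Fzd1 had folds of 67.5 and 69.3 in control IgG 1 and 2, 172 and 559 in depleted IgG 1 and 2, 420.4 and 1710.3 in control IP 1 and 2, and 53.0 in depleted IP 1. Bax, a promoter of apoptosis, was in the control IP lists only, at 292 and 1245. Tpr, a protein of the nuclear pore basket, was likewise in the control IP lists only, at 224 and 398, with a region of 11 bp.

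Barhl1, a homeobox transcription factor needed for the survival of hair cells, was the 1 gene of 23 hair cell markers with a site in any of the 8 lists. Its region at chr2:28909194-28909421 had folds of 158 and 269 in control IgG 1 and 2, 455 and 256 in depleted IgG 1 and 2, and 23738 in depleted IP 1, with no site in the other IP lists. That was the highest fold of a member in depleted IP 1, followed by Mrps30, a mitochondrial ribosomal protein gene, at 20751 and Syne4, the nesprin-4 gene, at 16653. Of 25 supporting cell markers 4 had a site and Epcam, an epithelial adhesion molecule, held members, with IgG folds from 3.71 to 22.3 in one region and 14.1 to 63.5 in the other. Of the mesenchyme markers 5 had an IgG site and 0 a member, of the glia markers 1 and 0, and of the immune markers 1 and 0. No neuron, endothelial or melanocyte marker had a site. The lists hold sites and no levels, so the cochlear label could be checked only by these few genes.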

How the data were processed

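The data are lists of mRNA sites, 1 per library, from 12 libraries of mouse inner ear organoids. Reads were trimmed and aligned by the authors, whose processing notes list HISAT2 2.0.4, cutadapt 1.9.3 and the build mm8, per the submitters. Peak IDs carry the name MACS, per the file headers and rows, with no version. The coordinates fit GRCm38 (262 of 271 members lay inside their gene interval in the GRCm38.p6 table, with 269 matched by name) and are printed counting from 1. The authors deposited for each site a fold enrichment (a ratio), a false discovery rate in percent, a score (−10 log10 of p) and a width. Peaks were listed per library. Read counts were not used here, so depth is unknown.

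Sites of the 8 IP and IgG lists were merged at 1 bp overlap with Python 3.11.15 and pandas 2.3.3, after the merge was tested on simulated sites. Shares were compared over libraries by exact permutation (SciPy 1.17.1). Alternatives were a 50% overlap, merging the IgG lists alone, genes in place of regions, stricter sites, each library left out, and the set number as a block. Named genes were those with most regions, the highest mean IgG percentile, sites in all 4 IP lists, in none or in depleted IP 2, and the 2 highest of each gene list; Chchd1, Fkbp8, Kxd1, Aif1l, Gstm1, Polr3a, Lars2, Mrps30, Syne4, Luc7l2, Snrnp70, Sfi1, Bet1, Vti1b, B4galt5, the deposited terms and further list members were named after their values were seen. Members and lists were chosen with earlier results of these data known.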

Additional observations from a re-analysis of the deposited data

How the results depend on the processing

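The number of regions in all 4 IgG lists was again 271 with a 50% overlap and with the IgG lists merged alone, was 213 as genes, and ran from 273 to 308 when 1 IgG list was left out. Stricter sites gave 94 regions (fold no lower than the list's median), 166 (width of at least 100 bp) and 38 (false discovery rate under 100%), since each of these keeps fewer sites. With the rate under 100% the share of members was 31.6% in control IP 1, 31.6% in control IP 2, 50.0% in depleted IP 1 and 0% in depleted IP 2, and members minus other IgG regions reversed to -11.3 points (exact p of 0.375). With the limit on fold the shares were 10.6% in depleted IP 1 and 0% in depleted IP 2. Control minus depleted recurrence was 63.8 points with the limit on fold and 6.58 points with the rate under 100%, reversed to -6.09 points without depleted IP 2 and reached 62.5 points at the other end of the single omissions, while members minus others ran from 22.7 to 38.2 points. With the set number as a replicate block, control minus depleted was again 28.2 points (exact p of 1, where 2 pairs allow 0.5), and whether the numbers pair the sets is not given by the labels. The other settings kept the direction of both differences, and with so few libraries neither test can reach the usual threshold. Depth is unknown, so a region missing from a list was not shown to be absent from the library.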
